A study of Mus musculus with 221 samples.

Results

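At the early 2-cell stage the mouse embryo hands control from transcripts stored in the oocyte to transcripts of its own genome. Single 2-cell embryos were ranked by a ratio of 2-cell to oocyte transcripts, and the embryos at either end were compared. For each embryo the summed count of 4 genes of the 2-cell burst (Zscan4c, Zscan4d, Zscan4f and Zfp352) was divided by the summed count of 4 oocyte genes (Zp2, Zp3, Gdf9 and Bmp15), with 0.5 added to both sums, and the log2 of that ratio was taken. Embryos were chosen by this ratio within each diet group of the sires. The top 25% were called advanced and the bottom 25% delayed, names that stand only for high and low values of this ratio, which gave 54 advanced and 54 delayed embryos. The rest, 62 with sires on a high-fat diet (HFD) and 51 with sires on a low-fat diet (LFD), are called the middle embryos. The 8 defining genes are described only and were left out of every test of single genes. The ratio itself was tested only for a difference between the diets.

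Fertilization was done in vitro with sperm of C57BL/6N males kept on either diet. Every oocyte donor had the C57BL/6N nuclear genome and Staudach mitochondrial DNA, so the embryos of both diets share their nuclear strain and their maternal mitochondria. Each library was 1 embryo, prepared by Smart-seq2, a PCR-amplified full-length protocol for polyadenylated RNA. Sire, fertilization date and embryo sex are not given per embryo in the labels, so embryos of 1 sire counted as independent in every p-value below, and the spread measured is that between embryos. The advanced group held 30 HFD and 24 LFD embryos, as did the delayed group, so the 2 ends held 60 of the HFD and 48 of the LFD embryos.

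In the mouse, Zscan4 genes and Zfp352 are transcribed in a short burst in the 2-cell embryo, as part of a programme in which many genes have promoters linked to endogenous retroviral repeats. Zp2 and Zp3 encode proteins of the zona pellucida, the coat of the egg, and Gdf9 and Bmp15 encode growth factors that the oocyte secretes to the follicle cells around it. Their mRNAs are stores made before ovulation that are degraded after fertilization, whereas genes for ribosomes and RNA processing are among the early targets of the embryonic genome.

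The ratio ran from −0.47 to 2.60 (median −0.13) in the advanced HFD embryos and from −4.97 to −1.23 (median −1.47) in the delayed HFD embryos. In LFD embryos it ran from −0.56 to 0.19 (median −0.33) in the advanced and from −3.01 to −1.34 (median −1.59) in the delayed group. The groups do not overlap because the ratio chose them, and HFD embryos held both the highest and the lowest values. The HFD embryo just inside the advanced group stood at −0.4674 and the one just outside at −0.4678, and for LFD embryos these values were −0.5590 and −0.5786. At the lower threshold the last delayed embryo stood at −1.2274 in HFD and −1.3393 in LFD, and the first middle embryo at −1.2104 and −1.3327. Over all HFD embryos the mean ratio was −0.82 ± 0.84 (SD, over the 30 advanced, 62 middle and 30 delayed embryos). Over all LFD embryos it was −0.99 ± 0.58 (SD, n = 99). The difference of 0.169 did not pass a 2-sided permutation test (p = 0.0902). That test shuffled single embryos, although the diet was given to the sires. Sires are not named in the labels, so it could not measure the spread between sires or test the diet across them.

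**Figure D1:**
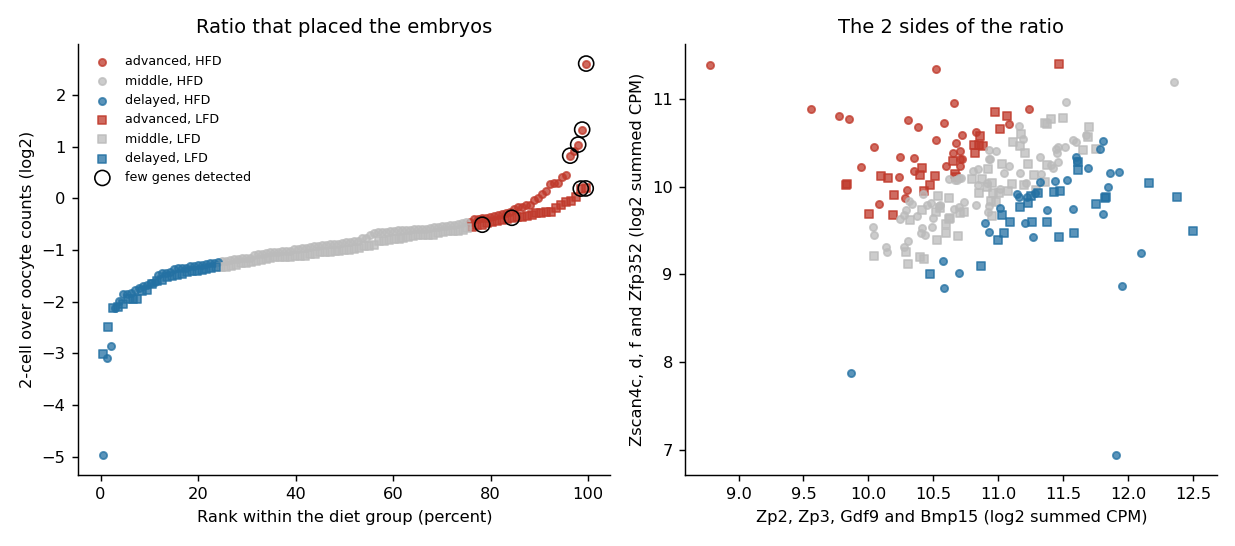
Left, the log2 ratio of 2-cell to oocyte counts (y axis) of each embryo against its rank within its diet group in percent (x axis), with rings around the 8 embryos in which few genes were detected. Right, the 2 sides of the ratio as log2 of summed CPM, counts in each 1000000, in which advanced embryos (red) lie to the upper left of the delayed embryos (blue) with the middle embryos (grey) between them, and circles are HFD and squares LFD embryos.

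The defining genes did not contribute equally, because their counts were summed. Bmp15 made up a median of 75.6% of the 4 oocyte genes' counts and Zfp352 47% of those of the 4 2-cell genes. On the scale of log2(CPM + 1), where CPM is counts in each 1000000 of all counts, Bmp15 ran from 8.06 to 11.17 (median 9.95) in advanced and from 7.98 to 12.23 (median 11.07) in delayed embryos, and 53 of 54 advanced embryos lay below the delayed median. Gdf9 had a median of 8.34 in advanced (range 5.92 to 9.04) and 8.55 in delayed embryos (7.89 to 9.71), and Zp2 had medians of 6.05 and 6.49. Zp3 was not lower in advanced embryos, with a median of 5.57 (4.18 to 7.26) against 5.51 (4.24 to 6.64). On the 2-cell side, Zscan4d had medians of 8.56 and 7.66, Zscan4c of 7.54 and 6.62, and Zscan4f of 7.68 and 6.61 in advanced and delayed embryos. Zfp352, the most abundant of them, had medians of 9.05 and 8.86. Over all embryos the ratio had a Pearson's r of −0.66 with Bmp15, 0.64 with Zscan4f, 0.41 with Zfp352 and 0.18 with Zp3, given as a description of how the sums weighted the genes. A share of all counts cannot tell a fall of the oocyte transcripts from a rise of all others.

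The advanced libraries also differed in quality measures. A median of 17902.5 genes had a count in advanced embryos (range 11364 to 20206) and 19363.5 in delayed embryos (16216 to 21638), a mean difference of −1989 genes (permutation within diet, 2-sided, adjusted p = 4e-05 over 4 measures, the smallest that the permutations allow). The 37 mitochondrial genes took 6.14% ± 2.60 (SD, n = 54) of counts in advanced and 4.82% ± 2.44 (SD, n = 54) in delayed embryos (permutation, adjusted p = 0.00447). Total counts were lower in advanced embryos by a mean of 0.23 on the log2 scale (permutation, adjusted p = 0.00128). The share of the 50 most abundant genes differed by 0.293 percentage points (permutation, adjusted p = 0.661). All 8 embryos of the series with fewer than 15067 genes were advanced, 4 from each diet. The total calls and several gene groups are given below with and without them, and with the number of genes detected as a covariate.

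**Figure D2:**
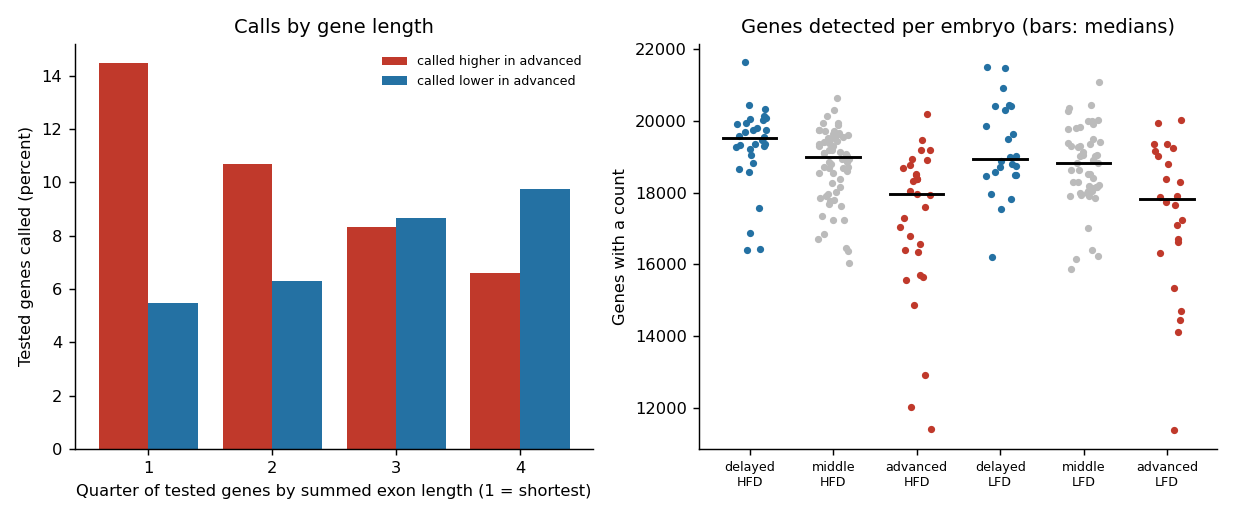
Left, percent of tested genes (y axis) called higher (red) or lower (blue) in advanced embryos in 4 equal parts of the tested genes by summed exon length (x axis), where higher calls fall from 14.5% to 6.58% and lower calls rise from 5.46% to 9.75%. Right, number of genes with a count per embryo by position and diet, with bars at the medians, where the advanced groups reach the lowest values.

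Of 14287 genes tested with edgeR's quasi-likelihood test with diet as a covariate, 1431 were higher in advanced embryos (10% of those tested) and 1077 lower (7.54%) at a Benjamini-Hochberg adjusted p under 0.05. The changes were mostly small. By more than 1 on the log2 scale, 0.931% of tested genes were higher and 0.553% lower, and no gene had groups that did not overlap. Without the 8 embryos with few genes the calls were 1564 higher (10.7% of 14628) and 1159 lower (7.92%). Of the 2508 genes called with them, 2018 were called again. With the number of genes detected as a covariate 903 were higher (6.32%) and 452 lower (3.16%), and 932 of the 2508 were called again.

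Both diets were then taken alone, so that no embryo was shared. In HFD embryos 765 genes were higher (5.42% of 14126) and 488 lower (3.45%) in the advanced group, and in LFD embryos 246 were higher (1.74% of 14101) and 57 lower (0.404%). Of 752 genes higher in HFD and tested in both, 741 were also positive in LFD embryos (98.5%, against 49.5% of all genes), and those also called there were 20.6% of the HFD list and 63% of the LFD list. Of the 488 genes lower in HFD, 461 were negative in LFD (94.5%, against 50.6% of all genes) and 36 were called, which is 7.38% of the HFD and 63.2% of the LFD list. Across the 13771 genes tested in both, which are not independent replicates, the log2 fold changes had a Pearson's r of 0.549. The difference in effect between diets was tested as an interaction over the 54 advanced and 54 delayed embryos, without the middle embryos. With edgeR it was called for 0 of 16530 genes (0%), with 538 at an unadjusted p under 0.05. DESeq2 and limma-voom also called 0, with 735 and 764 genes at an unadjusted p under 0.05.

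The middle embryos, which neither end used, gave the same directions for most genes. In them the slope of expression on the ratio was called positive for 801 genes (4.74% of 16893) and negative for 715 (4.23%). Of the 1431 genes higher in advanced embryos, 1278 had a positive slope in the middle embryos (89.3%, against 45.8% of all genes) and 494 were called. Of the 1077 lower genes, 1006 had a negative slope (93.4%, against 54.2%) and 302 were called. Both tests use the same ratio on different embryos, the first as a comparison of 2 groups and the second as a slope over more genes.

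**Figure D3:**
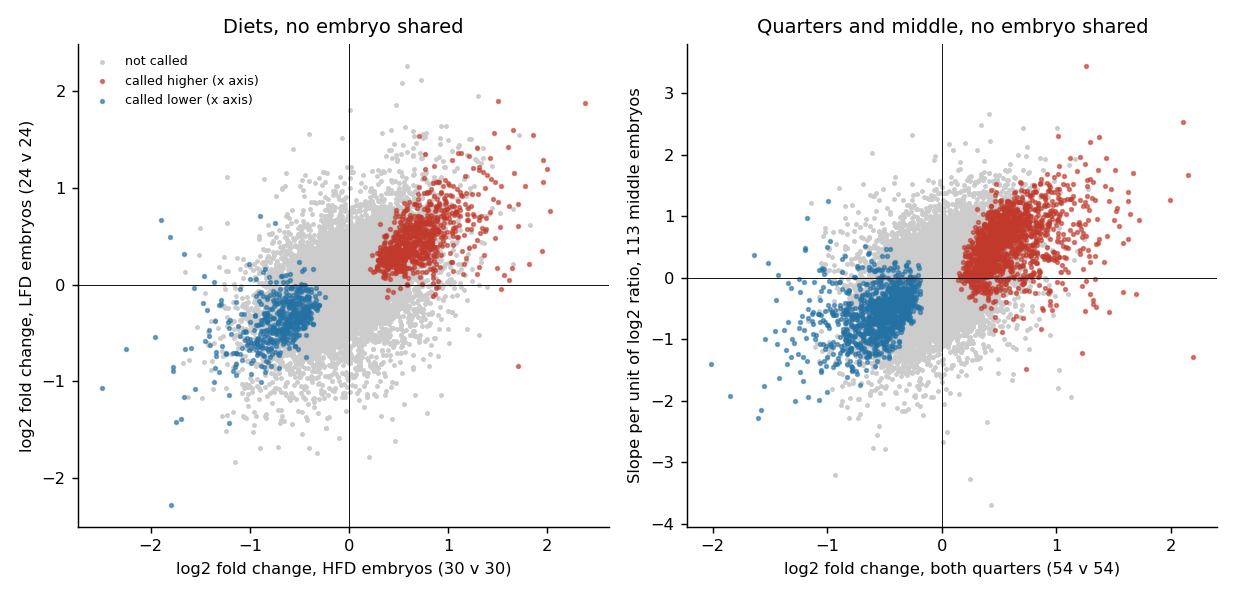
Left, log2 fold change of advanced over delayed embryos for each gene in HFD embryos (x axis) and in LFD embryos (y axis), coloured by the call in HFD embryos. Right, fold change between the ends of both diets (x axis) against the slope per unit of the log2 ratio in the middle embryos (y axis), coloured by the call on the x axis. Most called genes lie in the lower left or upper right, as 741 of 752 and 461 of 488 do on the left.

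The embryo numbers in the titles were not spread evenly over the positions. For example, of the HFD embryos numbered 41 to 50, 7 were advanced and 1 was delayed, and of those numbered 21 to 30, 0 were advanced and 5 were delayed. Only 17 of 24 ranges of 10 numbers held embryos of both positions. With these ranges as a covariate within each diet, 289 genes were higher (2.02%) and 110 lower (0.77%), and 390 of the 2508 genes called without it were called again. What the ranges stand for is not given in the labels, so range and position cannot be told apart where a range holds only one of them.

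The genes with the largest differences among those called, averaging 3 log2 CPM or more and with the same sign in HFD, LFD and middle embryos, were as follows. Values are log2(CPM + 1), and fold changes are log2 values from edgeR with their standard errors (SE). Srsf7, a serine and arginine-rich splicing factor (chr17:80200080-80207307, GRCm38, minus strand), ran from 6.35 to 9.65 (median 8.13) in advanced and from 4.13 to 9.22 (median 6.89) in delayed embryos. The groups overlapped, and 50 of 54 advanced embryos lay above the delayed median. Its fold change was 1.14 ± 0.15 (SE, adjusted p = 1.27e-08), with 1.03 in HFD and 1.28 in LFD embryos.

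Bag1, a co-chaperone of HSP70 proteins (chr4:40936398-40948294, minus strand), had medians of 5.54 in advanced (range 3.87 to 7.79) and 4.40 in delayed embryos (2.12 to 6.23), and 10 advanced embryos exceeded every delayed one. Its fold change was 1.19 ± 0.17 (SE, adjusted p = 1.30e-07). Spic, a transcription factor of the ETS family (chr10:88674772-88685015, minus strand), had the largest fold change of these genes, 1.52 ± 0.23 (SE, adjusted p = 4.42e-07). Its median was 7.08 in advanced (3.14 to 8.88) and 5.29 in delayed embryos (0.00 to 8.16), and the lowest value of 0.00 means that no read was counted. Zfp622, a zinc finger protein related to a factor that matures the large ribosomal subunit, had a fold change of 1.43 ± 0.24 (SE, adjusted p = 3.90e-06), with medians of 7.53 and 6.32.

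Hes1, a repressor downstream of Notch signalling, had a median of 7.57 in advanced (3.29 to 8.97) and 6.21 in delayed embryos (2.75 to 8.43), and a fold change of 1.21 ± 0.21 (SE, adjusted p = 5.13e-06). The difference was called in HFD embryos (1.5, adjusted p = 4.2e-05) but not in LFD embryos (0.86, adjusted p = 0.162), and Hes1 was not among the genes called in the interaction, of which there were 0. Lpar6, a receptor for lysophosphatidic acid that lies within Rb1 on the opposite strand, had a fold change of 1.31 and D16Ertd472e one of 1.27. Olfr624, an olfactory receptor gene, had a fold change of 1.29 between the 2 ends but rested on the embryos with few genes. Without them it was 0.25, with an adjusted p of 0.284.

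Among the genes lower in advanced embryos, Abcb8, a transporter of the inner mitochondrial membrane (chr5:24393663-24410054, plus strand), had the largest difference. It ran from 0.00 to 4.70 (median 3.15) in advanced and from 2.34 to 5.79 (median 4.28) in delayed embryos, and 18 advanced embryos lay below every delayed embryo. Its fold change was −1.34 ± 0.26 (SE, adjusted p = 5.41e-05). Pabpc1l, the poly(A)-binding protein of oocytes and early embryos (chr2:164025450-164050538, plus strand), had medians of 5.55 in advanced (0.94 to 7.49) and 6.59 in delayed embryos (4.64 to 9.19). Its fold change was −1.21 ± 0.20 (SE, adjusted p = 4.33e-06), and it was also called in HFD, LFD and middle embryos. Fgf7, a growth factor of the FGF family, differed by −1.07 and Tie1, a receptor tyrosine kinase of endothelial cells, by −1.29. Ube2d1, a ubiquitin-conjugating enzyme, Htra1, a secreted serine protease, Ric3, a chaperone of acetylcholine receptors that overlaps Tub on the opposite strand, and the pseudogene Vmn2r-ps61 differed by −1.08, −1.02, −1.10 and −1.21. Tie1, Ric3, Fgf7 and Vmn2r-ps61 had medians of 1.98 to 2.91 in advanced embryos, so these differences concern weakly expressed genes.

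**Figure D4:**
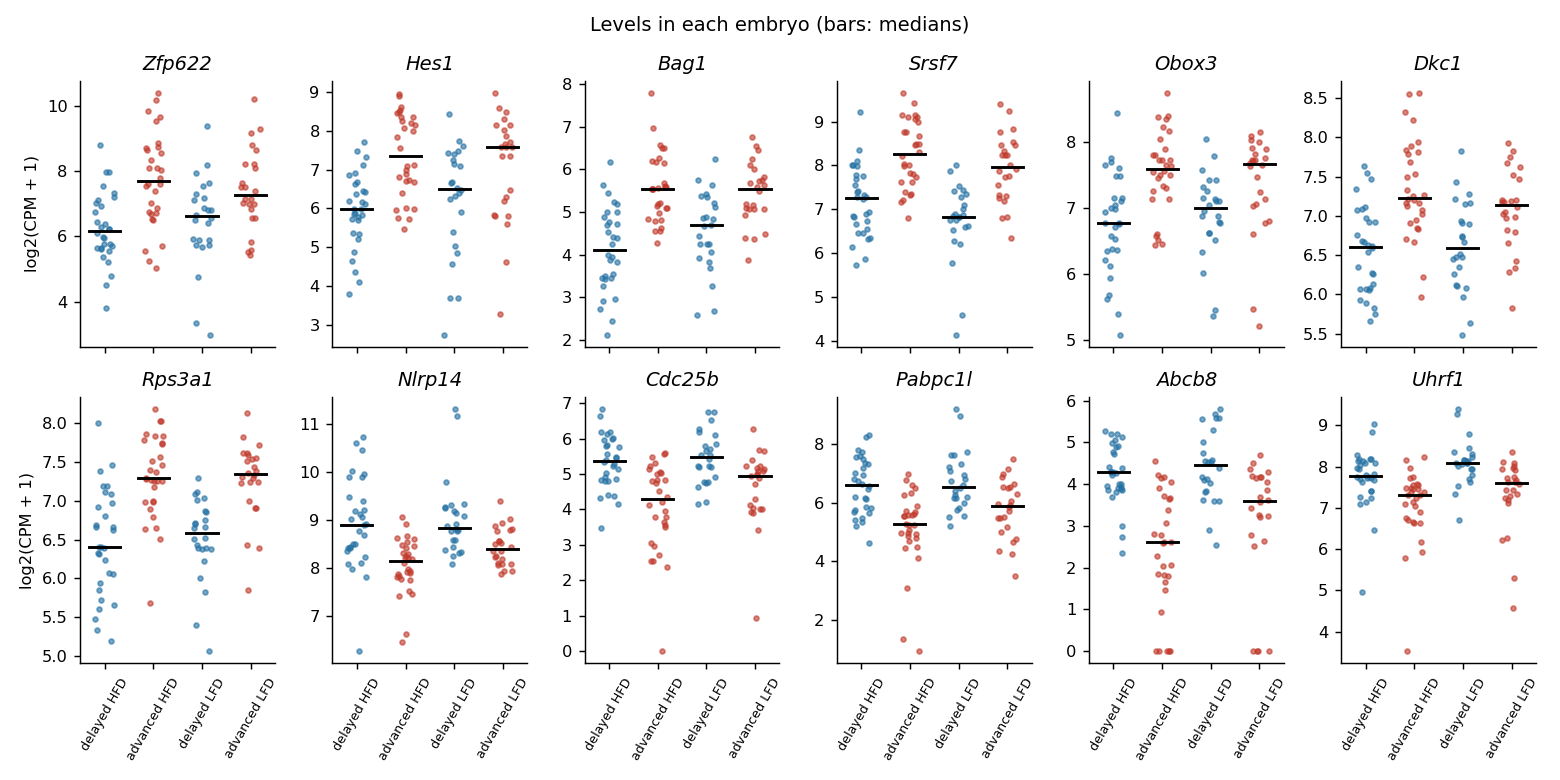
Level of 12 genes as log2(CPM + 1) on the y axis in each delayed (blue) and advanced (red) embryo of the HFD and LFD groups on the x axis, with bars at the medians. The medians of Zfp622, Hes1, Bag1, Srsf7, Obox3, Dkc1 and Rps3a1 are higher and those of Nlrp14, Cdc25b, Pabpc1l, Abcb8 and Uhrf1 lower in advanced embryos of both diets, and the groups overlap for every gene.

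Counts in each group below are to be read against the 10% of all tested genes called higher and the 7.54% called lower, and several groups lie near these shares. Groups from the 2-cell programme, ribosomes, splicing and the cell cycle are described first, and whether the embryo transcribed them was not tested. In the Zscan4 family outside the defining genes, all 6 tested members were higher (median log2 fold change 0.90, against −0.03 over all tested genes), Zscan4a by 1.01 ± 0.13 (SE, adjusted p = 5.04e-09). These paralogs are close copies of the defining Zscan4 genes and can share their reads, so their difference is not independent of the choice of embryos. In the middle embryos 0 of the 6 were called, 5 of the 6 slopes were negative and the median slope was −0.13. Of 33 genes tested that are known to be linked to retroviral repeats in the 2-cell embryo, 8 were higher and 3 lower, with a median of 0.16. Gm2016 was higher by 0.80 (medians 7.23 and 6.55, adjusted p = 3.74e-07) and Usp17lb, a deubiquitinase gene of a multicopy family, by 0.60 (medians 8.39 and 7.92, adjusted p = 1.94e-06). The 3 lower genes were Gm20767, Pramef25 and Zfp750, which are named for being few. Counts within these multicopy families are uncertain. In the middle embryos 0 of the 33 repeat-linked genes had a positive slope called and 3 a negative one, with a median slope of −0.19.

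Of 22 other early zygotic transcripts tested, 10 were higher and 0 lower, with a median of 0.38 (edgeR). Obox3, a homeobox gene of the early embryo, ran from 5.22 to 8.74 (median 7.64) in advanced and from 5.08 to 8.43 (median 6.91) in delayed embryos, with a fold change of 0.65 ± 0.12 (SE, adjusted p = 5.59e-05). Its slope was also called in the middle embryos (0.87, adjusted p = 0.00202). Nr5a2, a nuclear receptor that takes part in activating the embryonic genome, was higher by 0.61, Klf5, a transcription factor of the early lineages, by 0.82, and Hspa8, a constitutive HSP70 chaperone, by 0.52 (adjusted p = 3.73e-06). Obox6, tested among the oocyte transcription factors and Obox genes, was higher by 0.64, while 1 of those 11 genes, Lhx8, was lower. Among 20 tested regulators of the 2-cell programme 7 were higher and 4 lower, and nucleolin (Ncl), which represses Dux, was higher by 0.34 (adjusted p = 1.40e-04).

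Genes for making ribosomes were called in 1 direction only. Of 81 tested cytosolic ribosomal protein genes, 49 were higher and 0 lower (median 0.39), against 10% of all tested genes called higher. Rps3a1 (chr3:86137940-86142702, minus strand) ran from 5.68 to 8.18 (median 7.32) in advanced and from 5.06 to 8.0 (median 6.51) in delayed embryos, and 49 of 54 advanced embryos lay above the delayed median. Its fold change was 0.81 ± 0.11 (SE, adjusted p = 1.31e-08), with 0.80 in HFD and 0.83 in LFD embryos. Rpl28, which overlaps Ube2s on the opposite strand, was higher by 0.77, and all 54 advanced embryos lay above the delayed median. Of 40 genes for ribosome biogenesis and the nucleolus 18 were higher and 0 lower (median 0.29). Dkc1, the pseudouridine synthase of box H/ACA particles, had medians of 7.18 in advanced (5.83 to 8.56) and 6.60 in delayed embryos (5.49 to 7.83), and a fold change of 0.69 ± 0.11 (SE, adjusted p = 1.04e-06). Nop56, a core protein of box C/D particles, was higher by 0.66. In the middle embryos 33 ribosomal protein genes and 20 ribosome biogenesis genes had a positive slope called, and 0 a negative one. With number ranges as a covariate these counts between the 2 ends were 9 and 4 higher, and 0 lower.

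Of 41 mRNA splicing factors 11 were higher and 3 lower (median 0.17). Beside Srsf7, Srsf5 was higher by 0.63 (adjusted p = 8.31e-09) and Snrpa1, a protein of the U2 particle, by 0.93 (adjusted p = 8.47e-07). The 3 lower genes, Snrpd3, Snrpf and Sf3b3, also encode parts of spliceosomal particles. Of 33 genes for the G1/S transition and DNA replication 9 were higher and 3 lower, among them Ccne2, a cyclin that drives entry into S phase (0.64 ± 0.09 SE, adjusted p = 4.69e-08), and Gmnn, which prevents a second round of replication (0.49, adjusted p = 1.11e-06). Of 34 genes for G2/M and mitosis 8 were higher and 1 lower. The lower one was Cdc25b, the phosphatase that activates CDK1 at the resumption of meiosis and at mitotic entry (−0.93 ± 0.18 SE, adjusted p = 6.42e-05). It had medians of 4.74 in advanced (0.00 to 6.29) and 5.41 in delayed embryos (3.49 to 6.83).

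Oocyte transcripts outside the defining genes were lower in part. All 8 tested oocyte Nlrp genes, which encode NOD-like proteins of the egg, had negative fold changes (median −0.50) and 5 were called. Nlrp14, which the embryo needs from the egg for early cleavage (chr7:107166990-107198102, plus strand), ran from 6.45 to 9.40 (median 8.25) in advanced and from 6.27 to 11.31 (median 8.88) in delayed embryos. In 49 of 54 advanced embryos it lay below the delayed median, and its fold change was −0.95 ± 0.14 (SE, adjusted p = 4.44e-07). It was called in HFD (−1.07), LFD (−0.78) and middle embryos (slope −1.23). Nlrp4a differed by −0.61. Of the 8 genes of the subcortical maternal complex, a protein assembly under the egg membrane, 0 were higher and 5 lower (median −0.33), with Ooep at −0.75 (medians 5.52 and 6.21) and Zbed3 at −0.44 (medians 14.57 and 15.15). In the middle embryos 4 genes of each of these groups had a negative slope called, and 0 a positive one. With number ranges as a covariate 1 Nlrp gene and 0 genes of the complex were lower.

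Among 34 maternal effect and early embryo factors 4 were higher and 11 lower (median −0.22). With number ranges as a covariate 1 was higher and 0 lower, and with genes detected 2 were higher and 3 lower. Uhrf1, which guides maintenance of DNA methylation, was lower by −0.63 (medians 7.41 and 7.99, adjusted p = 2.20e-04), and Tet3, which oxidizes methylcytosine after fertilization, by −0.42. Zar1, an mRNA-binding protein of the oocyte, was lower by −0.69 (adjusted p = 4.76e-04), whereas its paralog Zar1l was higher by 0.76 (adjusted p = 4.54e-04). The secreted and zona genes of the oocyte outside the defining set moved in both directions, with 3 of 12 higher and 5 lower. Omt2a, an abundant oocyte transcript, was higher by 0.56 (medians 12.36 and 11.95), and Kit, the receptor by which the oocyte reads signals of the follicle, was lower by −0.42 (medians 7.53 and 8.01). Of 11 oocyte Fbxw genes 2 were higher and 0 lower. Of 29 factors of maternal mRNA decay 6 were higher and 5 lower, Ythdf2, a reader of methylated adenosine, by 0.57 (adjusted p = 1.00e-06) and Cnot3, a subunit of the CCR4-NOT deadenylase that overlaps Leng1 on the opposite strand, by −0.55 (adjusted p = 8.01e-06).

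Several of these counts moved when libraries or covariates changed. Without the 8 embryos with few genes, repeat-linked genes were higher for 12 and lower for 3, and regulators of the 2-cell programme were higher for 9 and lower for 1. Splicing factors were then higher for 16 and lower for 3. Ribosomal protein genes were higher for 54 and ribosome biogenesis genes for 21, with 0 lower in both. With the number of genes detected as a covariate, ribosomal protein genes were higher for 35 and ribosome biogenesis genes for 8, with 0 lower in both, repeat-linked genes were higher for 13 and lower for 0, and secreted and zona genes were higher for 0 and lower for 2. Of the Nlrp genes 4 were then lower, and of the subcortical maternal complex 2. Splicing factors were then higher for 6 and lower for 2. With number ranges as a covariate, early zygotic transcripts, splicing factors and G1/S genes were each higher for 4 and lower for 0. Regulators of the 2-cell programme were then higher for 1 and lower for 0, and repeat-linked genes higher for 8 and lower for 0. Genes for G2/M and mitosis were higher for 2 and lower for 1. Factors of maternal mRNA decay were higher for 1 and lower for 1 with number ranges, and for 3 and 1 with genes detected. Without the few-gene embryos 7 of these decay factors were higher and 2 lower.

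The groups above depended on which side of the ratio placed the embryos. Embryos were ranked again by the 4 2-cell genes alone and by the 4 oocyte genes alone, where advanced means a low oocyte level, and by a ratio in which each gene had equal weight. Over all genes, 9.69% were called higher and 10% lower with the 2-cell genes, 29.6% and 27.6% with the oocyte genes, and 3.08% and 1.26% with equal weights. The rankings share embryos and are therefore given side by side. Of the 54 advanced embryos, 26 were also in the top 25% by 2-cell genes, 27 by oocyte genes and 38 with equal weights.

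Cytosolic ribosomal protein genes were called higher for 76 of 81 and lower for 0 when low oocyte genes placed the embryos (median 0.92), but for 0 higher and 26 lower when 2-cell genes did (median −0.26), and for 0 and 2 with equal weights. Ribosome biogenesis genes followed the same order, with 37 higher and 0 lower, 0 higher and 14 lower, and 1 higher and 0 lower. Oocyte Nlrp genes were lower for 8 of 8 with oocyte genes (median −1.31), higher for 7 of 8 with 2-cell genes (median 0.53), and called for 1 of 8, as higher, with equal weights. The other Zscan4 genes were higher for 6 of 6 with 2-cell genes (median 1.89) and with equal weights (1.66), but lower for 5 of 6 with oocyte genes (−0.83). The repeat-linked genes were higher for 23 of 33 and lower for 0 with 2-cell genes, and 4 higher and 17 lower with oocyte genes. Early zygotic transcripts were higher for 2 and lower for 5 of 22 with 2-cell genes (median −0.04), higher for 14 and lower for 2 with oocyte genes (0.66), and 2 and 2 with equal weights (0.08). Maternal effect factors were higher for 6 and lower for 2 with 2-cell genes, and higher for 7 and lower for 18 with oocyte genes.

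Over all embryos the log2 levels of the 2 sides had a Pearson's r of 0.11, given as a description because both come from the same libraries. Whether the embryos follow a single order of genome activation, as the names of the groups imply, was not tested. For these gene groups the directions differed with the side used, so advanced and delayed stand here only for high and low values of the summed-count ratio. Of the 51 genes named in the sections above and recomputed under other settings, 20 kept their sign under all 3 other rankings. Among these, picked out after their values were seen, Srsf7 gave 0.24 with 2-cell genes (adjusted p = 0.312), 1.25 with oocyte genes and 0.72 with equal weights (adjusted p = 0.002), and Ccne2 gave 0.35 (adjusted p = 0.005), 0.38 and 0.53.

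**Figure D5:**
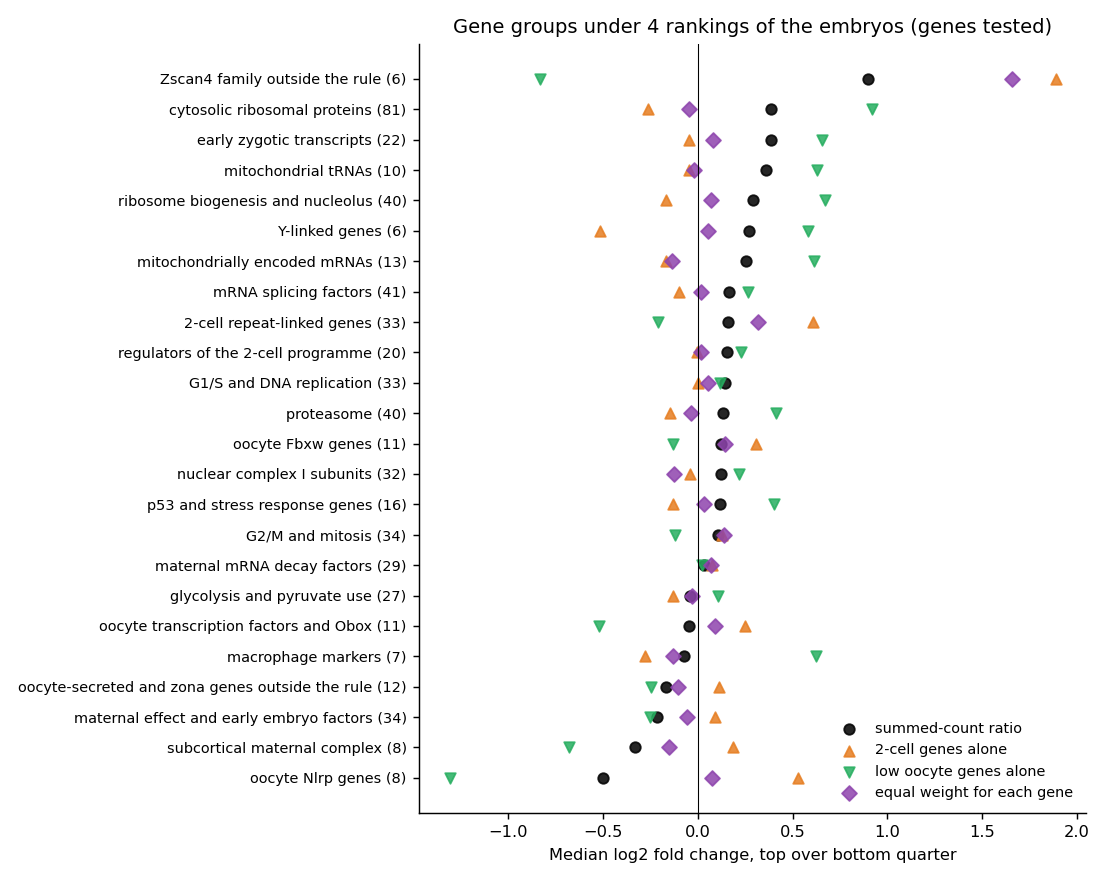
Median log2 fold change of the top over the bottom 25% (x axis) for each gene group with at least 6 tested genes (y axis, number tested in brackets), with embryos ranked by the summed-count ratio (black), by the 2-cell genes alone (orange), by low oocyte genes alone (green) or with equal weight for each gene (purple). For ribosomal proteins, ribosome biogenesis, the Zscan4 family and the Nlrp genes the orange and green symbols lie on opposite sides of 0.

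Called genes also differed in features that the choice of embryos did not use. They were more abundant, with a median of 5.845 log2 CPM for the higher and 5.627 for the lower genes, against 4.098 for all tested. Length and gene type were not compared at equal abundance. Genes higher in advanced embryos had a median summed exon length of 2976 bases, against 3855 for all tested genes and 4802 for the genes that were lower. In the shortest 25% of tested genes 14.5% were higher and 5.46% lower, and in the longest 6.58% and 9.75%. In the middle embryos the median slope did not follow this order, with −0.05, −0.01, −0.04 and −0.12 from the shortest to the longest 25%. Processed pseudogenes, intronless copies of mRNAs, made up 5.28% of the higher genes with an annotated type, 1.68% of the lower genes and 2.40% of all tested. Reads from a parent gene can be counted for such a copy, so the pseudogenes are counted here and not named.

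Promoters were searched for 10 short motifs, the TATA box among them, but no share is given. A RefSeq promoter (build GRCm38.p6) matched by symbol for 71% of tested genes, and for 42.9% of those higher and 74.7% of those lower by more than 1 on the log2 scale. With under 80% of the genes matched, the comparison of motifs is void.

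Transcripts of other cells and of stress were measured as well. Of 7 tested macrophage markers 0 were called, and the summed level of all 12 ran from 3.13 to 12.53 (median 6.33) log2 CPM in advanced and from 5.76 to 12.39 (median 6.31) in delayed embryos, with Tyrobp, C1qa, C1qc and Fcer1g at a median of 0. Of 12 cumulus and granulosa markers 3 were tested and 1, Tnfaip6, a matrix protein of the expanding cumulus, was called higher (1.35, adjusted p = 0.00487). Has2, Ptx3, Fshr, Foxl2, Inhba, Inha and Nr5a1 had a median count of 0, and the summed level ran from −1, the value for no count, to 7.43 in advanced and from 3.20 to 6.31 in delayed embryos. None of 8 sperm markers passed the filter, and of 2 tested blood cell markers 0 were called, or 1 without the embryos with few genes. Of 6 Y-linked genes tested 0 were called by edgeR, and 5 had a positive fold change (median 0.27). In LFD embryos alone 5 of 5 were positive (median 0.69), and in HFD embryos alone 2 of 6 (median −0.18). In the middle embryos 6 of 7 slopes were positive (median 0.91), with 0 called. Whether the ends differed in embryo sex was not tested.

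Of 16 tested p53 and stress response genes 3 were higher and 0 lower by edgeR, and 1 and 0 with number ranges as a covariate. Without that covariate Hspa5, a chaperone of the endoplasmic reticulum, was higher by 0.56 (adjusted p = 8.22e-05). Gadd45a, a growth arrest gene, was higher by 0.79 (adjusted p = 2.14e-04), and Cdkn1a, an inhibitor of cyclin-dependent kinases, by 0.65 (adjusted p = 0.00142). Of 13 mitochondrially encoded mRNAs 5 were higher and 0 lower, with mt-Cytb at 0.71 (adjusted p = 5.73e-05), and without the embryos with few genes 2 were called. With number ranges as a covariate 0 were called, and in the middle embryos 11 of the 13 slopes were negative (median −0.26) and 0 were called. Of 10 tested mitochondrial tRNAs 2 were higher with these embryos and 1 without, and of 2 mitochondrial rRNAs 0 were called.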

How the data were processed

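The authors deposited 1 table of raw counts per gene for the libraries of all embryos. Per the study's methods reads were trimmed and aligned with STAR 2.7.10a to GRCm38 carrying Staudach mitochondrial DNA. The file headers name featureCounts 2.0.3, which counted each read of a pair over exons with the strand setting at 2, although Smart-seq2 does not mark strand, so reads of overlapping genes on opposite strands cannot be told apart. Of counts above 0, 65.8% were even. Totals ran from 1937251 to 17246791 per embryo (median 5706066), and 11364 to 21638 genes had a count. Without molecular identifiers, PCR copies were counted as separate reads. The 50 most similar pairs of embryos differed by more than sampling noise (lowest chi-square 21.7 per gene), so none were merged.

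Genes were tested with edgeR 4.0.16 (TMM, filterByExpr, quasi-likelihood test, diet as covariate), with DESeq2 1.42.0 and limma 3.58.1 as alternatives, at a Benjamini-Hochberg adjusted p of 0.05. The main fit was checked on simulated counts of independent embryos with the same dispersion for every gene. That check asked whether set fold changes were found again, and it does not bear on the number of genes called here. Library measures were compared with 100000 permutations within diet. Named genes were the 8 largest and 8 smallest fold changes among genes called averaging 3 log2 CPM or more and the same sign in HFD, LFD and middle embryos, leaving out gene models without a name, and up to 4 genes with the smallest p of each of 28 gene lists. The embryos, lists and rules were chosen with earlier results of these data known. The lists are described by counts and medians, with no test over a list.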

Additional observations from a re-analysis of the deposited data

How the results depend on the processing

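Against 2508 genes called, the count was 4596 with limma-voom, 7697 with no low-count filter, 1627 with the top and bottom 10%, 6145 with a slope over all embryos, 617 with equal weight for each gene, 8223 ranked by oocyte genes, 399 with number ranges and 1355 with genes detected as covariates. limma-voom moved the median of all genes to −0.22 and the split from 57.1% higher to 26.5% higher, and genes detected as a covariate to 66.6%, equal weights to 71% and number ranges to 72.4%. Apart from limma-voom with a replicate block, given below, the other alternatives stayed within 1.5 times in the number of calls. That does not mean that the same genes were called. Ranking by the 2-cell genes alone gave 2832 calls, and 551 of them were among the 2508. For equal weights 365 genes were shared with the 2508, and for the oocyte genes 2184. LFD embryos gave 656 calls with DESeq2 against 303, and the middle slope 523 with number ranges against 1516. The ratio differed between diets by 0.20 with equal weights (permutation p = 0.032). Without HFD embryos 31 to 70 the difference was 0.0142 (permutation p = 0.889), and without few-gene embryos 0.128 (permutation p = 0.158). These tests of the ratio also shuffled embryos and not sires, so they do not test the diet across sires. The mitochondrial share differed by 0.984 percentage points without HFD embryos 31 to 70 (permutation, adjusted p = 0.0562), and the top 50 share by −0.122 without embryos with few genes. The causes were not tested. The diets alone and the interaction without few-gene embryos were fits added after seeing the data, with 1440, 362 and 0 calls.

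A replicate block by embryo number with limma-voom gave 4559 calls. The numbers did not pair the samples, as 31 of 94 same-numbered HFD and LFD embryos had deviations correlated over 0.1 (median 0.017) and 1 HFD embryo matched best with its own number.

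Ranked by the 2-cell genes alone, the sign of these log2 fold changes turned: Spic −0.21, Lpar6 −0.17, D16Ertd472e −0.94, Hes1 −0.0091, Bag1 −0.21, Obox3 −0.023, Klf5 −0.32, Nr5a2 −0.031, Ncl −0.071, Srsf5 −0.10, Snrpa1 −0.10, Rps3a1 −0.075, Zar1l −0.093, Gadd45a −0.13, Cdkn1a −0.34 and Tnfaip6 −0.65, and Vmn2r-ps61 0.14, Pabpc1l 0.43, Ric3 0.0042, Ube2d1 0.58, Fgf7 0.24, Htra1 0.074, Ooep 0.40, Zbed3 0.41, Nlrp14 0.22, Nlrp4a 0.71, Uhrf1 0.35, Zar1 0.38, Tet3 0.015 and Cnot3 0.21. With equal weights D16Ertd472e gave −0.033, Zbed3 0.12 and Nlrp4a 0.19, with oocyte genes alone Zscan4a gave −0.20, and with genes detected as a covariate Olfr624 gave −0.14. Of 867 values over 51 named genes, 734 kept sign and call, 98 lost the call and 35 turned sign.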

Other observations

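Calls among genes of energy metabolism and the proteasome are given beside all tested genes, of which 10% were higher and 7.54% lower in advanced embryos. Of 32 nuclear genes for complex I of the respiratory chain 3 were higher and 1 lower (median log2 fold change 0.12), and the 4 genes were Ndufa2, Ndufa13, Ndufb11 and Ndufs4. Of 27 genes for glycolysis and pyruvate use 2 were higher and 2 lower (median −0.04), namely Pdhb, Mpc1, Dld and Slc2a1. Among 40 proteasome genes 5 were higher and 4 lower (median 0.13). With number ranges as a covariate 0 genes of complex I and 0 of glycolysis and pyruvate use were called. For the proteasome 1 gene was then higher and 0 lower. All counts are from edgeR at an adjusted p under 0.05.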
